A study of Mus musculus with 10 samples.

Results

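The untreated comparison of the study set Sirt6 knockout (KO) samples beside wild-type (WT) samples, before any TNF-alpha was added. It holds 4 of the 10 arrays of the series, 2 of untreated KO and 2 of untreated WT, chosen by their labels and called a and b in each genotype. The KO group is Sirt6-/- and the WT group carries no named allele, and neither group received TNF-alpha (0 h). The other 6 arrays are 1 WT and 1 KO array each at 1.5, 6 and 24 h of TNF-alpha, and are used here only to look at the same genes again. Cell type, strain and age are not stated in the sources used here, and neither is whether a and b were separate cultures, so the errors and p-values measure only the spread between these arrays, which may be technical.

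Sirt6 encodes a chromatin-bound deacetylase of the sirtuin family that acts on histone H3. It is known to restrain glycolytic genes, genes of ribosome production and NF-kB target genes, and mice without it waste early and have low blood glucose and low circulating IGF-1. The untreated arrays ask which genes already differ between the genotypes without the cytokine. On each array the sample was labelled with Cy5 and a universal mouse reference RNA with Cy3, so every value is a log2 ratio of sample to reference, with the base read from the range of the values, since no source used here states it. A value of 0 is the median gene of that array, and a value of 1 is 2 times the median ratio. A gene was called separated where both KO values lay above both WT values (higher in KO) or both lay below them (lower in KO). The gap is the distance between the nearest KO and WT value.

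The gene group with the highest share of separated members on the lower side was cell cycle and DNA replication, among lists chosen with earlier results of these data known. Promoters are shown for 3 members that were lower in untreated KO and again lower in KO at 1.5, 6 and 24 h. The members were taken in order of their gap among those with a promoter in the RefSeq table. Genes of a single excluded chromosome were passed over, and the first listed promoter of each gene was used. The 3 members are Prim1, the catalytic subunit of primase, Plk4, the kinase that starts centriole duplication, and Mcm5, a subunit of the replicative helicase. Each promoter runs from 250 bases before to 50 after a start of transcription on the plus strand of GRCm38.p6, at chr10:128014965-128015264 for Prim1, chr3:40799701-40800000 for Plk4 and chr8:75109259-75109558 for Mcm5. Capitals mark matches on either strand to E2F letters (TTTCCCGC or TTTGGCGC), the CHR letters (TTTGAA) or CCAAT.

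Prim1: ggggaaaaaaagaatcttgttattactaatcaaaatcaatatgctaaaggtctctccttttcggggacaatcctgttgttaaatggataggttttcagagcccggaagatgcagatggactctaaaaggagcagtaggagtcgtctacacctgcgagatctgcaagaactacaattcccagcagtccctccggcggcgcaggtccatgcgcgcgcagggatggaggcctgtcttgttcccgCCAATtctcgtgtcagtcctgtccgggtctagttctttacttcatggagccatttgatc
Plk4: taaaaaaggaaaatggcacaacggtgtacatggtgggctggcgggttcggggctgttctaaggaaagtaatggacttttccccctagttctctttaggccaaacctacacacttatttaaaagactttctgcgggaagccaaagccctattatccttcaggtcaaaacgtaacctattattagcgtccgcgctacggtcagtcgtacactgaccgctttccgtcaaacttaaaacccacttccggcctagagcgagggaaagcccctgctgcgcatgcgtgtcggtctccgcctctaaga
Mcm5: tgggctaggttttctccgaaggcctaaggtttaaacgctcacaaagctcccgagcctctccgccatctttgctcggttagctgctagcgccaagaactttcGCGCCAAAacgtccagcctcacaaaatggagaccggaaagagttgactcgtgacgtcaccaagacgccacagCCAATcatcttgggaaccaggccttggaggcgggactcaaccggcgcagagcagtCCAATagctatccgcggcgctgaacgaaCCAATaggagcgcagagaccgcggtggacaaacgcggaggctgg

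The Prim1 promoter held 1 CCAAT match, the Mcm5 promoter 3 CCAAT matches and 1 E2F match, and the Plk4 promoter none of these letters. A match is a description of the letters and not a site of binding.

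Complete values on the 10 arrays were found for 36113 of 38784 spots, and probes with a single gene symbol gave 14365 genes, 9794 of them with 1 probe. The arrays held 36822 to 38556 values each, the fewest on KO array b. Precision is limited by the number of arrays. By the image numbers given with the samples, every WT array comes before every KO array, and genotype therefore cannot be told apart from that order.

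Sirt6 itself read -0.16 and 0.05 on the WT arrays and -1.05 and -0.82 on the KO arrays. The groups did not overlap. The difference was -0.88 (SE 0.21, n = 2 against 2), or 1.84-fold lower in KO, with an adjusted p of 0.194 in limma (Benjamini-Hochberg over 14365 genes). Its 2 probes gave -0.48 (SE 0.21) and -1.29 (SE 0.28), and their place relative to the deletion is unknown here. In the treated pairs Sirt6 was lower in KO at 1.5 h (-0.60) and 6 h (-1.23), while the array labelled KO 24 h lay 0.11 above its WT partner, so the main counts that use the 24 h pair are also given without it. Among the other sirtuins measured, the mitochondrial deacetylase Sirt3 was lower in KO (difference -0.50, SE 0.19) and Sirt5 higher (0.40, SE 0.21), although Sirt5 was -0.01 once the trend in spot order was removed. Sirt1 (-0.15, SE 0.25) and Sirt2 (-0.02, SE 0.22) overlapped between the genotypes.

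Across all genes, 3444 (24%) were higher and 4141 (28.8%) lower in KO, 2777 (19.3%) had 1 KO value on either side of both WT values, and 4003 (27.9%) overlapped otherwise. No gene passed an adjusted p of 0.05 in limma (0 of 14365, 0%), and 2464 (17.2%) had an unadjusted p under 0.05, of which 1100 were higher and 1364 lower. The smallest adjusted p was 0.112, for Cd247. Without centring, the median KO minus WT difference over genes moved from -0.04 to -0.20, the separated genes became 2006 higher and 5790 lower, and 1 gene, Cd247, passed (adjusted p = 0.0206). With KO array a left out limma called 3264 genes, and with KO array b left out 472, when the spread came from the WT pair alone. Nothing below therefore passed the test as fitted, and the genes are described by their values. The gaps were mostly small, with a median of 0.208 on the higher side and 0.222 on the lower. Ppp1r12c was just inside the rule, with a gap of 0.000167, and Egr2 just outside, where WT array a and KO array a shared the value -0.675.

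The KO arrays spread more widely than the WT arrays and resembled each other less. The SD over genes was 0.539 and 0.585 on WT arrays a and b, and 0.749 and 0.895 on KO arrays a and b. Over genes, the WT pair correlated at 0.857 and the KO pair at 0.690, while WT a with KO a gave 0.736 and WT b with KO b 0.544 (14365 genes on the same arrays and reference, which are not independent replicates). The duplicates differed by more than 1 for 91 genes (0.633%) in WT and for 1397 genes (9.73%) in KO. The lowest 1% of genes lay below -1.54 and -1.59 on the WT arrays and below -2.28 and -2.98 on the KO arrays. The highest 1% lay above 1.60 and 1.69 in WT and above 1.96 and 1.97 in KO, so the KO arrays were wider mainly on the low side. A wider array puts genes far from the reference farther out. The part of this in the differences below was not tested beyond repeating each comparison with the arrays scaled to equal spread or quantile normalized. Scaling uses a single factor per array and leaves such a difference between the sides. Under the values as centred, without centring, quantile normalized, scaled and with the trend in spot order removed, 1043 genes (30.3% of the higher) stayed higher and 1982 (47.9% of the lower) stayed lower in all 5.

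**Figure D1:**
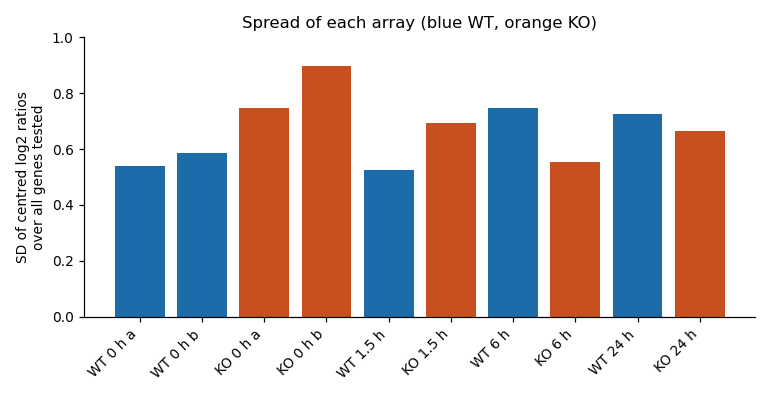
SD of the centred log2 ratios over all genes tested, for each of the 10 arrays (bars; blue WT, orange KO). The untreated KO arrays, at 0.749 and 0.895, are wider than the untreated WT arrays at 0.539 and 0.585, whereas at 6 h the WT array (0.746) is wider than the KO array (0.552).

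The 12 named genes with the widest gaps on the higher side included secreted and contractile proteins. C1qtnf3, which encodes a secreted C1q/TNF-related protein, read 0.61 and 0.54 in WT and 2.67 and 5.17 in KO. Its KO values were both above WT but far apart, and the difference was 3.35 (SE 0.79, limma adjusted p = 0.194). Id4, an inhibitor of helix-loop-helix transcription factors, read 0.65 and 0.83 in WT and 2.68 and 2.77 in KO, with close duplicates in both genotypes (difference 1.99, SE 0.20, 3.96-fold). Myl7, the atrial myosin light chain, read 0.57 and 0.70 in WT and 2.49 and 2.30 in KO (1.76, SE 0.20), and Myh11, the smooth muscle myosin heavy chain, 1.70 and 1.74 against 3.35 and 2.97 (1.44, SE 0.22). Among the membrane and secreted proteins, the tetraspanin Tspan2 read 1.46 and 1.34 in WT and 2.79 and 3.27 in KO, and both of its probes gave 1.62. The serine protease Klk8 read 1.40 and 1.56 against 3.40 and 2.86, and Prss23, another serine protease, 1.70 and 1.62 against 3.04 and 2.96. B3gnt5, a glycosyltransferase of glycolipid synthesis, read 0.99 and 1.36 against 3.001 and 2.83. Klhl13, a substrate adaptor of a ubiquitin ligase, read 1.44 and 1.72 against 3.16 and 3.56. The remaining members of this group were Enpp5, Olfr64 and Sprr2k, with differences of 1.38, 1.30 and 1.54. The first 2 of these had WT values below the array median and KO values above it.

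As centred, the widest gaps on the lower side were larger and included genes of immune cells and of the interferon response. A gap of at least 1 was reached by 46 higher and 146 lower genes as centred. After quantile normalization 109 higher and 47 lower genes reached it, and after scaling 90 and 65, so this imbalance depended on the scaling. Trim30a, an interferon-inducible protein known to feed back on NF-kB signalling, read -0.37 and -0.11 in WT and -3.77 and -4.82 in KO. This is a difference of -4.06 (SE 0.38), or 16.7-fold, and the KO values lay 3.40 below the nearest WT value. Cd247, the zeta chain of the T cell receptor complex, read 0.31 and 0.63 in WT and -3.08 and -3.18 in KO (-3.59, SE 0.21). Cd3e, another chain of that complex, read -1.58 and -1.76 against -3.65 and -5.11. The chemokine Ccl5, a known NF-kB target, read -1.78 and -1.56 in WT and -3.93 on both KO arrays (-2.26, SE 0.20). Fgl2, a fibrinogen-like protein of leukocytes, read -1.78 and -1.20 against -3.90 and -3.72, and Prtn3, a protease of neutrophil granules, -0.15 and 0.54 against -2.77 and -2.21. Outside the immune genes, the dystrophin-associated protein Sntb1 read -0.12 and -0.08 in WT and -2.38 and -2.37 in KO, but its 2 probes gave -3.39 and -1.17. The peptide transporter Slc15a2 read 0.16 and 0.17 against -2.05 and -2.27. The developmental transcription factor Tbx1 read 0.03 and 0.43 against -1.98 and -2.40. Arsg, a lysosomal sulfatase, had KO values of -2.67 and -6.12 and so the largest error of the 12 (-3.82, SE 1.08). Olfr160 and the ceramidase Acer2 gave -3.48 and -2.54. The difference of all 24 genes kept its sign under each of the 5 scalings, though the KO and WT values of Prss23 and Myh11 were no longer apart under 1 of them, and their adjusted p ranged from 0.112 to 0.217.

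**Figure D2:**
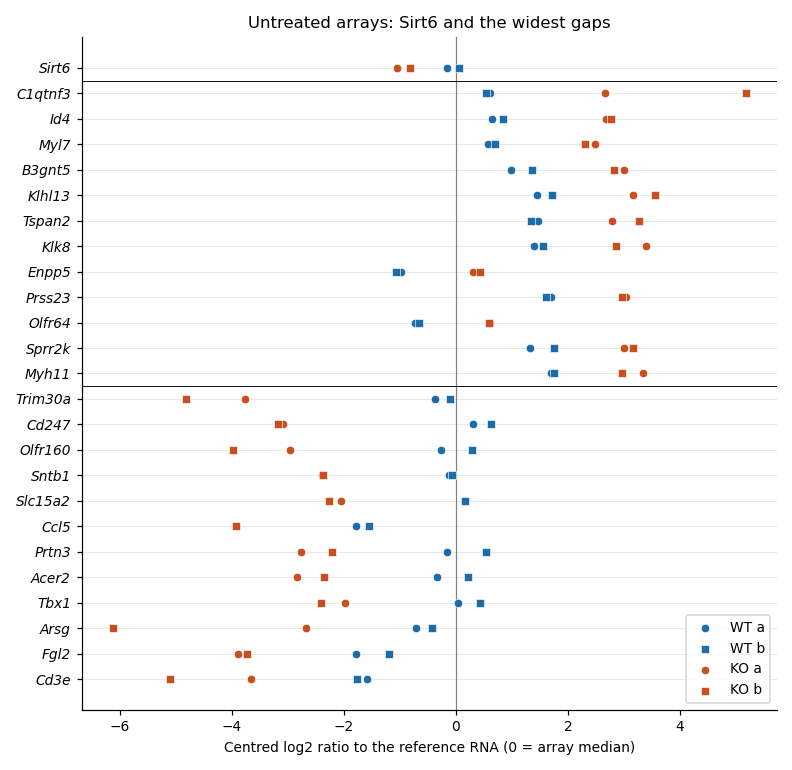
Centred log2 ratio to the reference RNA (x axis) on the 4 untreated arrays for Sirt6 (top), the 12 genes with the widest gap above WT and the 12 with the widest gap below it. Blue points are WT, orange points KO, circles array a and squares array b; in every row the orange pair lies apart from the blue pair, and C1qtnf3 and Arsg show KO duplicates more than 2 apart.

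The treated arrays share no array with the untreated ones, only the reference RNA, and were used to see which separated genes lay on the same side in KO again. At 1.5 h the direction was the same for 71% of the genes higher at 0 h and 69.7% of those lower, where 49.4% and 50.6% of all genes lay on those sides. At 6 h it was the same for 39.5% of the higher and 48.2% of the lower genes, below the 45.4% and 54.5% of all genes, and at 24 h for 49.4% and 45.9% (all genes 51.4% and 48.6%). As centred, genes with a gap of at least 1 were more divided. Of 46 higher genes 93.5% kept their direction at 1.5 h and 23.9% at 6 h, and of 146 lower genes 79.5% and 19.9%. Chosen after quantile normalization, 45% of 109 higher and 31.9% of 47 lower genes kept it at 6 h (all genes 49.1% and 50.9%). Chosen after scaling, 42.2% of 90 higher and 29.2% of 65 lower genes did so (all genes 46.1% and 53.9%). Over all genes the 0 h difference correlated at 0.35 with that at 1.5 h, -0.27 at 6 h and -0.03 at 24 h, as a description. With arrays scaled to equal spread these values were 0.32, -0.13 and 0.02. The spread of the arrays moved with this, as the KO array was the wider at 1.5 h (SD 0.695 against 0.526) and the WT array at 6 h (0.746 against 0.552) and 24 h (0.727 against 0.664). The difference between 0 h and the mean treated pair, tested as an interaction, passed for 0 genes in limma (1884 at an unadjusted p under 0.05, smallest adjusted p 0.145), and without the 24 h pair for 0 (1413, smallest 0.0869). That interaction took its spread from the untreated duplicates only, since each treated group had 1 array. The treated pairs alone gave 0 genes (0%, with 632 or 4.4% at an unadjusted p under 0.05), and without the 24 h pair 0 (371).

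**Figure D3:**
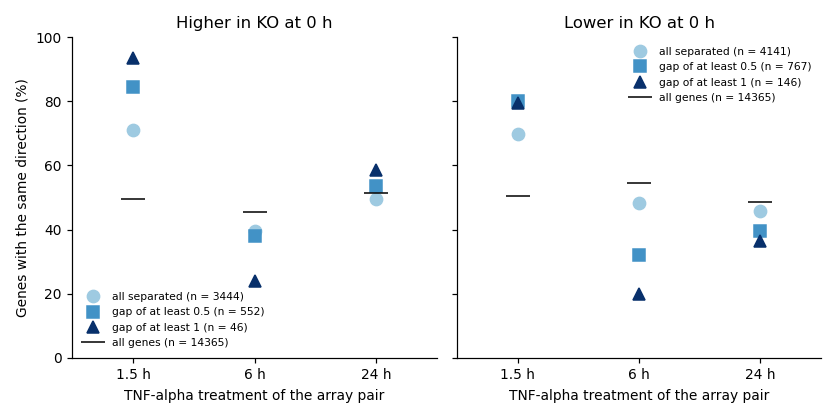
Percent of genes separated at 0 h (y axis) whose KO minus WT difference had the same sign in the array pair at 1.5, 6 and 24 h of TNF-alpha (x axis), for genes higher (left) and lower (right) in untreated KO. Points darken with the gap required, and black dashes give all genes; at 1.5 h the points lie above the dashes (71% and 69.7% for all separated genes) and at 6 h below them (39.5% and 48.2%).

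In all 3 treated pairs the direction was the same for 481 of the 3444 higher genes (14%, against 11.6% of all genes) and 763 of the 4141 lower genes (18.4%, against 14%). Without the 24 h pair, it was the same in both remaining pairs for 25.6% of the higher and 33.4% of the lower genes, where 20.2% and 25.4% of all genes lay on those sides. Of the genes that held one side at 0 h under all 5 scalings, 170 higher (16.3%) and 411 lower ones (20.7%) lay there in the 3 treated pairs. Without 24 h, 300 and 685 did so in both pairs. The treated values here were those as centred. Crabp1, which binds retinoic acid in the cytosol, was lower by more than 1 in every comparison. It read 0.13 and 0.16 in untreated WT and -1.24 and -1.43 in KO (-1.48, SE 0.20, 2.79-fold), and lay below WT by a log2 difference of -1.50 at 1.5 h, -1.15 at 6 h and -1.10 at 24 h. Pop4, a subunit of the RNA-processing enzymes RNase P and RNase MRP, read 1.67 and 1.59 against 0.38 and 0.19, with treated differences of -0.85, -2.18 and -1.30. Prim1 read -0.93 and -0.83 in WT and -2.02 and -2.31 in KO, with -1.04, -0.18 and -0.55 in the treated pairs. Pdk1, the kinase that closes pyruvate dehydrogenase, gave -1.40 at 0 h and -0.71, -0.12 and -0.24 under TNF-alpha. Ckmt2, the mitochondrial creatine kinase of muscle, gave -1.60 and then -1.03, -0.13 and -1.90. Taf7, a subunit of the general transcription factor TFIID, gave -1.29, while Sntb1 (-0.20, -0.54 and -1.52) and Gsdmc (-0.03, -0.05 and -0.12) were lower but by little in some treated pairs.

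On the higher side, Enpp5, of the ectonucleotide pyrophosphatase family, read -0.98 and -1.06 in WT and 0.30 and 0.43 in KO (1.38, SE 0.19) and was 0.89, 0.41 and 0.90 higher in the treated pairs. Anks1b read -0.96 and -0.70 against 0.53 and 1.05, with 0.47, 0.56 and 1.86. Aspdh read 0.03 and 0.11 against 1.62 and 1.22 and gave 0.10, 0.85 and 3.36. Dhrs2, a short-chain dehydrogenase, differed by 1.33 at 0 h. Amh, the anti-Muellerian hormone, differed by 1.24 and the zinc finger gene Zfp39 by 1.20, and both were 0.05 to 0.60 higher when treated. The odorant receptor genes Olfr459 (1.13) and Olfr1387 (1.21) were also among the 8, with treated differences of 0.02 to 0.44.

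Gene groups are described by the number of measured members on each side, set beside 24% higher and 28.8% lower over all genes. No member of any of the 31 lists passed the adjusted threshold in limma, and a list count is not a test. Of 90 measured cell cycle and DNA replication genes, 54 (60%) were lower in KO and 8 (8.89%) higher, with a median difference of -0.39 (all genes -0.04). The median was smaller after quantile normalization (-0.16) and scaling (-0.22), below 0 in both. Under each of the 5 scalings 33 of the 54 held the lower side, beside 47.9% of all lower genes. The list median was -0.29 on KO array a and -0.49 on KO array b against the WT mean, and in the treated pairs -0.23, -0.16 and -0.05. In the treated pairs, 17 of the 54 were lower all 3 times, and 30 in both pairs without 24 h, beside 18.4% and 33.4% of all lower genes. Plk1, the mitotic polo-like kinase, read -0.04 and -0.05 in WT and -1.11 and -1.71 in KO. Mcm7, a helicase subunit, read -0.72 and -0.79 against -1.74 and -2.77, though its 2 probes gave -0.57 and -2.44. Ccna2, the cyclin of S and G2 phase, read -0.58 and -0.51 against -1.29 and -1.45 (-0.83, SE 0.19), followed by -0.45, -0.41 and -0.40 under TNF-alpha.

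The genes whose promoters are printed above read as follows. Plk4 read -0.37 and -0.32 in WT and -1.02 on both KO arrays, with probes of -1.10 and -0.25. Mcm5 read -0.37 and -0.55 against -1.20 and -1.10, and was again lower at 1.5, 6 and 24 h (-0.76, -0.39 and -0.47). Among members that overlapped, Mcm6 differed by -0.38 (SE 0.27), which turned to 0.20 after quantile normalization and 0.14 after scaling, and Cdc25b by 0.34 (SE 0.27), which was -0.09 with the spot trend removed. Among inhibitors of the cycle and p53 targets, 8 of 26 were higher and 11 lower. The pocket protein Rbl1 was lower (-1.26, SE 0.19), and Perp (0.98, SE 0.22) and Pmaip1 (0.92, SE 0.23), both p53 targets, were higher.

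Promoter letters were counted for the 11632 tested genes with a promoter in the table (14536 promoters of 300 bases). CCAAT was in 37.9% of all promoters, 37.7% of those of higher genes and 37.6% of those of lower genes. The E2F letters were in 2.25%, 1.85% and 2.87%, and the CHR letters in 14.6%, 13.9% and 15.4%. NF-kB letters (GGANTTTCC) were in 1.36%, 1.42% and 1% and AP-1 letters (TGANTCA) in 7.08%, 7.59% and 6.34%. The MEF2 letters (CTAAAAATA or CTATTTATA) were in 0.812%, 0.956% and 0.694%. Both strands were searched throughout. In the 84 promoters of 72 cell cycle genes the E2F letters were in 16.7%, CHR in 38.1% and CCAAT in 64.3%. In the 50 promoters of its lower members they were in 20%, 42% and 68%.

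Groups of basic metabolism and protein turnover also had more lower than higher members. Their medians were nearer 0 than that of the cell cycle list as centred, but most were not after scaling or quantile normalization. Scaled, the proteasome, cholesterol and ribosomal lists stood at -0.48, -0.27 and -0.26 against -0.22 for the cell cycle. Quantile normalized, they stood at -0.39, -0.22 and -0.20 against -0.16. Of 27 genes of cholesterol and fatty acid synthesis, 14 (51.9%) were lower and 2 higher, with a median of -0.22 (-0.38 without centring). Scd1, which desaturates stearate, read -0.39 and -0.47 in WT and -1.27 and -1.20 in KO. Acly, which makes cytosolic acetyl-CoA, read 1.01 and 0.93 against 0.43 and 0.30. Ebp and Sqle, enzymes of sterol synthesis, gave -0.58 and -0.68, the latter from probes of -1.32 and -0.05. Of 29 proteasome subunits 16 (55.2%) were lower and 5 higher (median -0.21), with Psmc2 at -0.74 and Psma5 at -0.64. The list median was 0.06 at 1.5 h, -0.33 at 6 h and 0.16 at 24 h, so its side changed between the treated pairs. Of 52 respiratory chain genes 21 (40.4%) were lower and 7 higher (median -0.12), led by the complex I subunits Ndufv1 (-0.78, SE 0.20) and Ndufb5 (-0.66, SE 0.22). Of 66 cytosolic ribosomal protein genes 22 (33.3%) were lower and 8 higher (median -0.14). Here Rpl7a was lower (-0.82, SE 0.19) and Rps15a higher (1.02, SE 0.24), and many such genes have near-identical pseudogenes that can share probes. With arrays scaled to equal spread the medians of the proteasome, respiratory chain and ribosomal lists were -0.48, -0.20 and -0.26, with quantile normalization -0.39, -0.14 and -0.20, and without centring -0.37, -0.27 and -0.30. With the spot trend removed the proteasome median was -0.10 and that of the respiratory chain -0.07.

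Glycolysis and the hypoxia response, which SIRT6 is known to restrain, had 17 of 36 members (47.2%) lower and 3 higher in untreated KO. The list median was -0.14 but 0.14 after quantile normalization and 0.08 after scaling, so its direction depended on the scaling. Pdk1, described above, read -1.76 and -1.97 in WT and -3.10 and -3.43 in KO. The phosphofructokinase Pfkp gave -1.08 from 4 probes that ranged from -3.61 to 0.24, and Pgk1, phosphoglycerate kinase, gave -0.59, which was 0.07 with the spot trend removed. Higd1a, a hypoxia-inducible mitochondrial protein, was on the other side (0.59, SE 0.19) and was 0.56 to 0.79 higher in the treated pairs. In the insulin-like growth factor axis 8 of 24 members (33.3%) were lower and 6 higher. Igf1 read -0.21 and -0.17 in WT and -1.16 and -1.24 in KO (-1.01, SE 0.19), with probes of -1.30 and -0.73. Its treated differences were -0.39, 0.51 and 0.38. The binding protein gene Igfbp5 was higher (0.80, SE 0.20), and Igfbp4 was lower (-1.004, SE 0.23) but 0.07 after quantile normalization and 0.06 after scaling. Foxo3, a transcription factor held back by insulin signalling, gave -0.67 from 4 probes, of which 1 gave 0.13.

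Inflammatory groups did not lie on one side. Of 29 genes of the NF-kB pathway and its feedback 11 (37.9%) were higher and 7 (24.1%) lower, with a median of 0.04. Rela, the p65 subunit of NF-kB, read -0.43 and -0.33 in WT and 0.27 and 0.25 in KO (0.64, SE 0.19). The kinase Ikbke was higher as well (0.55, SE 0.21), and 0.34, 0.72 and 0.85 higher in the treated pairs. Birc3, an apoptosis inhibitor induced by NF-kB, was lower (-0.53, SE 0.19). Nfkbia, which encodes the inhibitor IkB-alpha, gave -0.53 (SE 0.21), but 0.25 after quantile normalization, 0.12 after scaling and 0.07 with the spot trend removed.

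Of 47 chemokines and cytokines 18 (38.3%) were higher and 11 (23.4%) lower, and the median of 0.14 turned to -0.02 without centring and -0.05 with the spot trend removed. The widest gaps in that list were all on the lower side, in Ccl5, Clcf1, Cxcl5 and Ccl4. Cxcl5, a neutrophil-attracting chemokine, read -1.73 and -1.72 in WT and -2.79 and -3.35 in KO. Ccl4, a macrophage chemokine, read -2.19 and -2.13 against -3.23 and -4.18, and the cytokine Clcf1 gave -1.62, from probes of -0.52 and -2.74. Of 38 inflammatory effectors and acute phase genes 17 (44.7%) were lower and 10 higher. The complement protease C1ra gave -2.31 (SE 0.28), from probes of -3.17 and -1.46. The matrix protease Mmp3 gave -2.41 (SE 0.49), from probes of -3.40 and -1.43. Lrg1 gave -1.44 (SE 0.19) and the iron-binding Lcn2 -2.55 (SE 0.71). The list median of -0.13 was 0.07 after quantile normalization and 0.05 after scaling.

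Of 40 interferon-stimulated and antigen presentation genes 16 (40%) were lower and 7 (17.5%) higher. The list median was -0.29 at 0 h but 0.17 after quantile normalization, 0.10 after scaling and 0.08 with each probe alone, and in the treated pairs it was -0.12, 0.21 and 0.28. The interferon-induced Ifit1 read -0.05 and 0.56 in WT and -1.86 and -2.18 in KO (-2.27, SE 0.28). Oasl2 read -0.87 and -1.18 against -2.48 and -3.32, and Tap1, the peptide transporter of antigen presentation, -0.59 and -0.35 against -1.79 and -2.19. The interferon-induced GTPase gene Igtp gave -1.12 (SE 0.21). The WT medians of this list, -0.83 and -0.71, lay far below the array median, where a wider array lowers values further, and the part of that was not tested beyond the scalings given.

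Developmental groups had more higher than lower members. Of 21 imprinted growth genes 15 (71.4%) were higher and 2 lower, the highest share above WT of any list, with a median of 0.51. This median was 0.28 after quantile normalization and 0.07 with arrays scaled to equal spread. Under each of the 5 scalings 5 of the 15 held the higher side, beside 30.3% of all higher genes. As centred, the median lay near 0.23 on both WT arrays and at 0.82 on both KO arrays. Peg3, a zinc finger gene expressed from the paternal allele, read -0.26 and -0.40 in WT and 0.82 and 1.27 in KO (1.38, SE 0.24, 2.59-fold). Phlda2 (0.77, SE 0.20) and Impact (0.68, SE 0.19) were higher, although Impact was -0.09 with the spot trend removed. The G protein gene Gnas was lower (-0.70, SE 0.20), from probes of -1.40, -0.31 and -0.415, of which only the first was separated. The list median was 0.25 at 1.5 h, then -0.26 and -0.15. In all 3 treated pairs 2 of the 15 stayed higher (3 in both without 24 h), beside 14% (25.6%) of all higher genes. Of 34 Hox genes 13 (38.2%) were higher and 2 (5.88%) lower, with a median of 0.26 that was 0.10 without centring. Hoxa5 read 0.67 and 0.75 in WT and 1.61 and 1.57 in KO, and Hoxa7 0.78 and 0.58 against 1.53 and 1.49. Hoxa7 (1.03, 0.10 and 0.01) and Hoxc8 (1.05, 0.08 and 0.26) were also higher in the 3 treated pairs, and Hoxc5 (1.09 at 0 h, SE 0.41) in 2 of them. The medians of the Hox list in those pairs were 0.14, -0.07 and -0.14.

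Of 48 striated muscle genes 20 (41.7%) were higher and 4 (8.33%) lower, with a median of 0.22 that was 0.06 without centring and 0.10 after scaling. As centred, this median was 0.15, 0.14 and 0.15 in the treated pairs. Of the 20, 6 were higher in all 3 pairs (7 in both without 24 h), beside 14% (25.6%) of all higher genes. Beside Myl7, the myogenic regulator Myog read -0.42 and -0.41 in WT and 0.60 and 0.98 in KO. Acta1, skeletal muscle actin, read 2.88 and 3.27 against 4.09 and 4.25, a difference of 1.09 that became -0.54 after scaling. Ckmt2 lay on the other side. Of 21 smooth muscle and myofibroblast genes 10 (47.6%) were higher and 1 lower, but the median of 0.13 was -0.03 without centring, -0.14 after quantile normalization and -0.46 after scaling. Mylk, myosin light chain kinase (0.83, SE 0.20), and Des, desmin (0.90, SE 0.24), were higher also after scaling (0.67 and 0.60), and were higher in all 3 treated pairs. Acta2, smooth muscle actin, gave 0.84 and, after scaling, -0.63. Fewer cells of a type and less RNA per cell cannot be told apart in such samples.

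**Figure D4:**
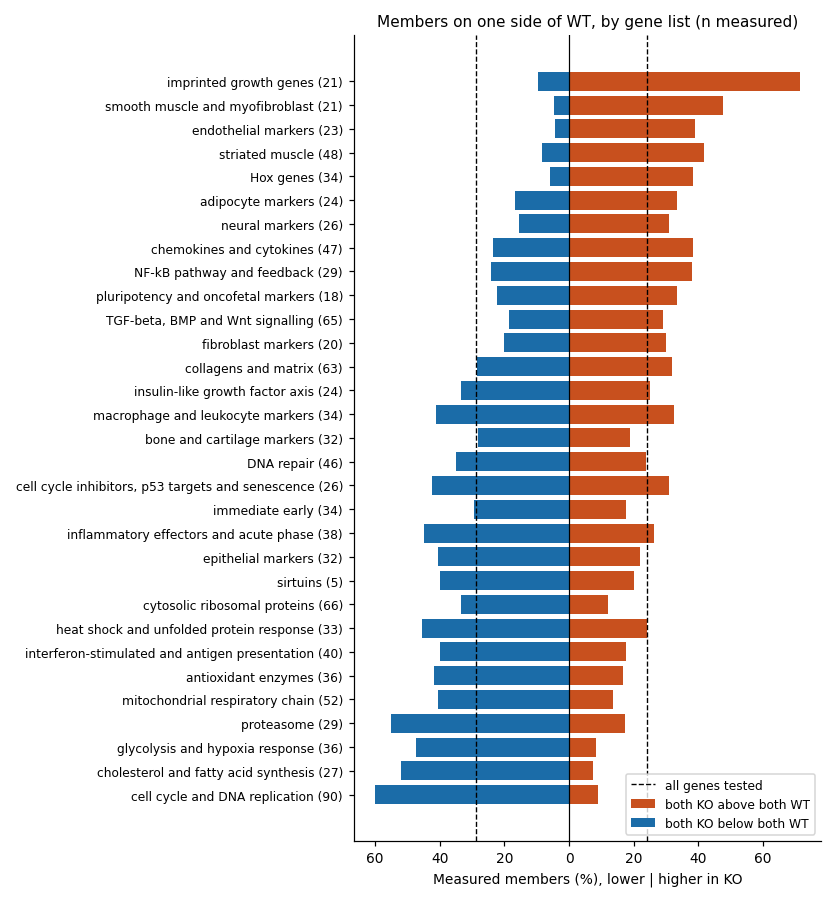
Percent of the measured members of each of 31 lists (number in brackets) with both KO values above both WT values (orange, to the right) or below them (blue, to the left), with the shares over all genes as dashed lines (24% and 28.8%). Cell cycle genes reach 60% on the lower side and imprinted growth genes 71.4% on the higher side.

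**Figure D5:**
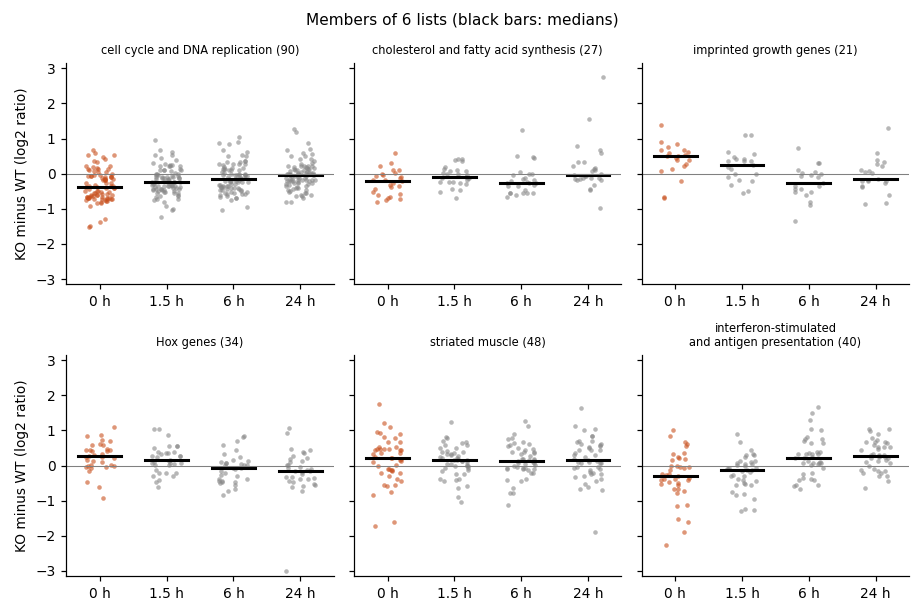
KO minus WT difference in log2 ratio (y axis) of each measured member of 6 lists at 0 h (orange, mean of 2 KO minus mean of 2 WT arrays) and in the single array pairs at 1.5, 6 and 24 h of TNF-alpha (grey); black bars are medians, and 1 point beyond the axis is drawn at its limit. The cell cycle bar lies below 0 in all 4 comparisons (-0.39, -0.23, -0.16 and -0.05), as does the cholesterol bar (-0.22, -0.08, -0.265 and -0.045). The imprinted bar moves from 0.51 at 0 h to -0.26 at 6 h.

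Markers of cell types were read as ratios to the reference, not as levels. The fibroblast list had 6 of 20 members higher and 4 lower, with list medians of 0.60 and 0.56 in WT and 0.58 and 0.69 in KO. Type I collagen Col1a1 lay above the reference on all 4 arrays (1.83 and 1.73 in WT, 1.56 and 1.73 in KO). The proteoglycan genes Lum and Dcn lay on opposite sides. Lum differed by 0.98 (SE 0.19), while Dcn read -2.25 and -2.36 in WT and -3.07 and -3.54 in KO, a difference that was 0.09 after quantile normalization and 0.28 after scaling. Fbln1 gave -0.63 and S100a4 0.52. In the wider list of collagens and matrix 20 of 63 were higher and 18 lower, with Omd at -1.84 (SE 0.35), elastin (Eln) at 1.24 (SE 0.24) and Nid2 at 0.92 (SE 0.19).

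Of 34 macrophage and leukocyte markers 11 (32.4%) were higher and 14 (41.2%) lower. Their list medians lay well under the array median in both genotypes, at -0.87 and -0.998 in WT and -0.88 and -0.85 in KO. The list median of the difference was -0.08. The 4 widest gaps were on the lower side, in Cd3e above, in the phagocyte oxidase subunit Ncf4 (-2.18 and -1.74 in WT, -4.05 and -4.50 in KO), in the B cell receptor chain Cd79b (-2.33, SE 0.62) and in Adgre1, the macrophage antigen F4/80 (-1.22, SE 0.22). Other markers of the same cells were higher, such as Laptm5 (1.08, SE 0.24), the B cell receptor chain Cd79a (1.05, SE 0.19), C1qb (1.04, SE 0.31) and the Fc receptor Fcgr3 (1.01, SE 0.31), named after their values were seen. The part of these cells in the chemokine and interferon values was not tested. Of 23 endothelial markers 9 (39.1%) were higher and 1 lower. Lyve1 read -0.59 and -0.75 in WT and 0.53 and 0.47 in KO, with Esam (1.23, SE 0.23) and Vwf (0.96, SE 0.22) on the same side and Icam2 on the other (-0.89, SE 0.21). The endothelial median of 0.22 was -0.01 with the spot trend removed.

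For the remaining lists only the counts are given. Higher and lower members numbered 6 and 10 of 34 immediate early genes, 11 and 16 of 46 DNA repair genes, 6 and 15 of 36 antioxidant enzymes, and 8 and 15 of 33 genes of heat shock and the unfolded protein response. For TGF-beta, BMP and Wnt signalling they numbered 19 and 12 of 65. Among markers they numbered 7 and 13 of 32 for epithelium, 8 and 4 of 26 for neural cells, 6 and 4 of 18 for pluripotent and oncofetal cells, 8 and 4 of 24 for adipocytes, and 6 and 9 of 32 for bone and cartilage.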

How the data were processed

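The authors deposited 1 normalized log ratio per spot and array, which is read here as log2 of Cy5 (sample) over Cy3 (reference RNA) from the dyes in the labels and the range of the values. The base, the normalization and the scanner settings are not given in the sources used here. Spots missing on any of the 10 arrays were left out. Arrays were centred on their median over genes, and probes with a single symbol in the platform table (22204) were averaged by gene. Genotype at 0 h was fitted on the 4 untreated arrays with limma 3.58.1 in R 4.3.3 (lmFit and eBayes, 2 residual and 3.33 prior degrees of freedom, two-sided, Benjamini-Hochberg over 14365 genes, threshold 0.05). The treated pairs were fitted apart, and the difference between 0 h and the treated pairs as an interaction, whose residual spread came from the untreated duplicates only. The code of the fit was also run on simulated arrays with planted changes. Those arrays had equal noise in WT and KO, unlike the real ones, so they cannot tell how the fit behaves with the wider KO pair. The genes described in detail are Sirt6, the 12 widest gaps on each side, the 8 widest on each side with all treated pairs alike, and in each list up to 4 separated members by gap and up to 3 others by size, without clone and model symbols. Plk4 and Mcm5 entered by the rule for promoters, and Ppp1r12c and Egr2 by the edge of the rule for separation. The members, lists and rules were chosen with earlier results of these data known. Promoters are from RefSeq (GRCm38.p6), matched by gene ID. Alternatives were other scalings, probe rules, a robust prior, a replicate block and each array left out.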

Additional observations from a re-analysis of the deposited data

Results flagged for a closer look

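In 7 of the genes chosen by the rule for description, both KO arrays lay on one side of both WT arrays at 0 h and all 3 treated pairs on the other. Some treated differences were very small. At 1.5 h St14 gave 0.0003 and Tbx1 0.004, and at 24 h Olfr64 gave -0.025 and Nr0b1 0.037. The 0 h difference minus the mean treated difference was -2.81 (SE 0.26) for Slc15a2, -3.20 (SE 0.33) for Tbx1 and 1.59 (SE 0.24) for Olfr64. Among list members it was -2.01 (SE 0.28) for the epithelial protease gene St14, -1.84 (SE 0.26) for Olig1, -1.43 (SE 0.57) for Nr0b1 and -1.22 (SE 0.26) for the DNA repair gene Ddb2. These errors hold no spread between treated arrays, because each treated group had 1 array. In limma's interaction test none of the 7 passed, with adjusted p from 0.208 to 0.383 over all genes. Among all 7585 separated genes, 687 (9.06%) were opposite in all 3 treated pairs, 297 of them higher and 390 lower at 0 h. Over all genes, 14% lay below WT and 11.6% above it in all 3 treated pairs, so opposite directions were no more frequent among separated genes. Without the 24 h pair 1161 were opposite in both, where 25.4% of all genes lay below WT and 20.2% above it.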

How the results depend on the processing

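The count of genes past the threshold at 0 h stayed at 0 under quantile normalization, scaling, removal of the spot trend, probes complete on the 4 arrays, each probe alone, a robust prior, an adjusted p under 0.1 and 1 model of all 10 arrays, and was 1 without centring. With a replicate block of the array letters it was also 0 (2176 genes at an unadjusted p under 0.05, smallest adjusted p 0.268). Deviations with the same letter correlated at -0.005 over genes, so no common deviation by letter was seen over all genes. With so few arrays this value cannot decide whether the letters pair them. Whether arrays with the same letter shared a day or batch was not tested. With 1 array left out the count ranged from 0 to 3264, the highest without KO array a and 472 without KO array b, since the spread then came from the WT pair alone. Separated genes numbered 4496 to 5728 higher and 5231 to 6746 lower with 1 array left out, where 3 values are easier to separate, and 2006 higher without centring. The share with the same direction in all treated pairs was 25.6% for higher and 33.4% for lower genes without the 24 h pair, where fewer pairs must agree (all genes 20.2% and 25.4%), and 6.16% for lower genes with a gap of at least 1. It was 17.4% and 20.1% (all genes 13.1% and 14.9%) with arrays scaled to equal spread, an alternative chosen after seeing the data. A replicate block leaves each difference as it was, so 14 list medians and 121 gene values counted next could not change sign. Of 154 medians of 14 lists under alternatives 141 kept their sign, though not their size: scaling took the imprinted median from 0.51 to 0.07. The others were glycolysis (0.138 quantile normalized, 0.0777 scaled), smooth muscle (-0.03 without centring, -0.14 and -0.46), endothelial (-0.00925 without spot trend), interferon (0.17 and 0.10, and 0.08 by probe), effectors (0.0697 and 0.0451) and chemokines (-0.018 without centring, -0.0515 without spot trend). Of 1294 values of single genes 1272 kept their sign. The others, by quantile normalization then scaling, were Nfkbia (0.25, 0.12), Mcm6 (0.20, 0.14), Igfbp4 (0.0653, 0.0636) and Dcn (0.0936, 0.28). By scaling alone they were Acta1 (-0.54) and Acta2 (-0.63). Without the spot trend they were Nfkbia (0.0685), Sirt5 (-0.00825), Cdc25b (-0.0905), Impact (-0.088) and Pgk1 (0.0735), and for 1 probe alone Foxo3 (0.13), Pfkp (0.24), Ddb2 (0.11) and Dcn (0.0845). With 1 array left out Sirt1 ranged from -0.41 to 0.11 and Sirt2 from -0.20 to 0.16. The causes were not tested. The number of arrays limits every value, and a gap within the spread of the KO pair cannot be told from it.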

Other observations

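Receptor and defensin families that few tissues transcribe had more higher than lower members, in counts chosen after their values were seen and beside 24% higher and 28.8% lower over all genes. Of 820 odorant receptor genes 216 (26.3%) were higher and 175 (21.3%) lower in untreated KO, with a median of 0.02 that was -0.02 with the spot trend removed. Of 120 vomeronasal receptor genes 39 were higher and 27 lower (median 0.13), and of 27 taste receptor genes 8 and 5 (median 0.14). Of 25 beta-defensin genes 8 (32%) were higher and 2 (8%) lower, with a median of 0.15 that was 0.21 after quantile normalization, 0.19 after scaling and 0.13 without the spot trend.

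Of the spots without a single gene symbol, 14916 had complete values. In these, 3635 (24.4%) were higher and 3750 (25.1%) lower, 0 passed the adjusted threshold in limma, and 1903 had an unadjusted p under 0.05.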
